A study of Mus musculus with 8 samples.

Results

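The 42 genes described here act in DNA replication and mitosis: they license and fire replication origins, supply deoxynucleotides, drive the cyclin kinase steps, and build the spindle and kinetochores. They were chosen by symbol, through the Entrez gene IDs of the count table, and all 42 were found among its 27179 gene IDs. RNA was sequenced from dendritic cells (DC) sorted from the spleens of C57BL/6 mice that all carried a leukemia. The 4 groups, of 2 libraries each, were plasmacytoid DC (pDC) of panobinostat-treated mice, pDC of vehicle-treated mice, conventional DC (cDC) of panobinostat-treated mice and cDC of vehicle-treated mice. Panobinostat inhibits histone deacetylases; treatment lasted 2 days, and each library came from a pool of 3 to 6 mice, which the labels call biological replicates. The sources used here do not give the age of the mice, the kind of leukemia or any genotype. One protocol field speaks of sorted leukemia cells, while titles and cell type fields name pDC and cDC. In replicates 1 and 2, the pDC marker Siglech had 5430 and 6550 CPM in panobinostat pDC and 4060 and 4240 CPM in vehicle pDC, against 1.83 and 1.85 CPM in panobinostat cDC and 3.26 and 1.57 CPM in vehicle cDC. Zbtb46, which marks cDC, had 4.36 and 19.6 CPM in panobinostat pDC and 2.37 and 8.27 CPM in vehicle pDC, against 200 and 186 CPM in panobinostat cDC and 137 and 154 CPM in vehicle cDC. Under vehicle, all 10 pDC markers followed were higher in pDC than in cDC by log2 fold change. Of 10 cDC markers, 8 were lower in pDC and 2 were higher. Clec10a was among the higher, with 381 and 419 CPM in vehicle pDC, against 16.8 and 3.74 CPM in vehicle cDC.

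Cells that enter the cycle switch on 2 waves of transcription. E2F factors raise the genes of DNA replication and nucleotide supply before S phase, and B-Myb with FoxM1, bound to the MuvB complex, raise the mitotic genes in G2. In quiescent cells the pocket proteins and the DREAM complex hold both sets down. Mature pDC are known as largely non-dividing cells, while part of the splenic cDC pool divides in place.

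Levels are depth-scaled counts (CPM, with TMM factors over all 8 libraries), and serve to compare a gene, or a fixed sum of genes, between libraries. Pairs of values are given as replicate 1 and replicate 2. A change is a log2 fold change with its standard error (SE) after the ± sign, from 2 libraries a group (n = 2), and "called" means an adjusted p below 0.05 in edgeR's quasi-likelihood test over all genes tested. Libraries held 13124861 to 20657429 counts. Panobinostat pDC replicate 2, the shallowest library, stood apart: 10745 genes had a count, against 14927 to 19950 in the other libraries, and the log2 CPM of the panobinostat pDC pair correlated across genes at r = 0.801, against 0.965 to 0.973 in the other groups. In that library 14 of the 42 members (33.3%) had 0 counts, beside 27.5% of the 14238 genes kept over all libraries. A count of 0 there allows up to 0.279 CPM (3 counts; counting error only).

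**Figure D1:**
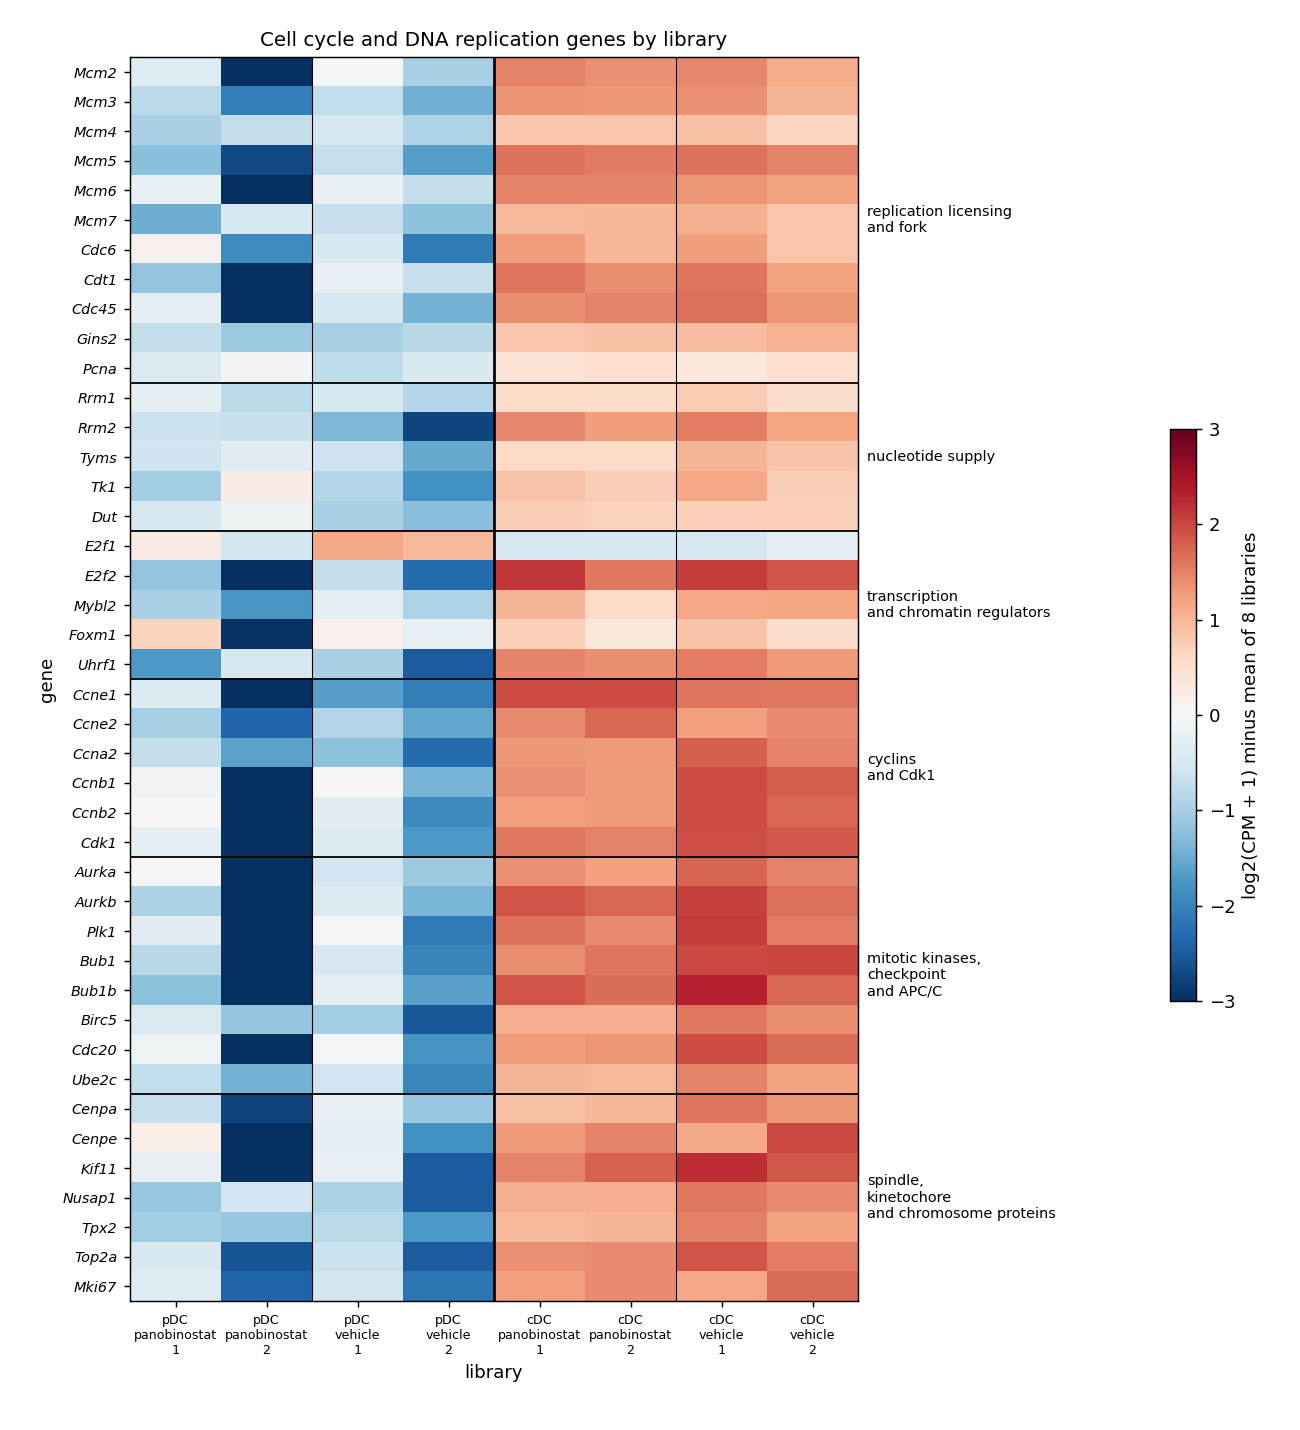
Level of each of the 42 genes (rows, by role) in each of the 8 libraries (columns), as log2(CPM + 1) minus the gene's mean over the 8 libraries; colours stop at -3 and 3. The cDC libraries are red for all genes but E2f1, and panobinostat pDC replicate 2 is the bluest column.

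In vehicle-treated mice, nearly all of the 42 transcripts were lower in pDC than in cDC. The 42 genes summed to 1286 and 738.4 CPM in vehicle pDC, against 5090 and 4402 CPM in vehicle cDC. Of the 42 genes, 40 were called lower in pDC and 1 was called higher, beside 18.4% of all 13710 genes called lower and 14.3% called higher. These counts come from a fit of the 4 vehicle libraries; with all 8 libraries fitted together, 16 of the 42 were called, all lower, beside 4.71% of all genes called lower, and with a replicate block added to that fit 15 were called, beside 3.68%. The median log2 fold change of the 42, pDC over cDC, was -2.62, beside 0.00174 over all genes tested. In RNA of bulk populations, fewer dividing cells and fewer such transcripts per cell cannot be told apart.

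All 11 replication licensing and fork genes were lower in pDC. Mcm2 to Mcm7 code for the hexamer that becomes the replicative helicase. Mcm5 had 44.4 and 22.3 CPM in vehicle pDC, against 229 and 206 CPM in vehicle cDC (log2 fold change -2.74 ± 0.36, adjusted p = 0.00627). For 41 of the 42 members both pDC libraries lay below both cDC libraries, beside 35.3% of all genes. The 6 Mcm genes were among them, and their log2 fold changes lay between -2.74 (Mcm5) and -1.51 (Mcm4). Cdc6 and Cdt1 load the hexamer onto origins, and Cdc45 and Gins2 belong to the active helicase. Cdc6 had 18.7 and 5.3 CPM in vehicle pDC, against 64.1 and 47.6 CPM in vehicle cDC (-2.25 ± 0.60, adjusted p = 0.0418), and Cdc45 had 7.82 and 3.73 CPM in vehicle pDC, against 38.7 and 30.5 CPM in vehicle cDC (-2.61 ± 0.41, adjusted p = 0.00975). Both pairs were apart, with pDC replicate 2 the lowest of the 4 libraries for each. Pcna, the sliding clamp that also serves DNA repair, had the smallest change of the 11, with 89.2 and 110 CPM in vehicle pDC, against 189 and 215 CPM in vehicle cDC (-1.05 ± 0.19, adjusted p = 0.0153).

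All 5 genes of nucleotide supply were lower as well. Rrm2, the cell cycle regulated small subunit of ribonucleotide reductase, had 35.6 and 12.7 CPM in vehicle pDC, against 269 and 212 CPM in vehicle cDC (-3.35 ± 0.53, adjusted p = 0.00997). Its partner Rrm1, the large subunit, had 97.9 and 73.6 CPM in vehicle pDC, against 232 and 196 CPM in vehicle cDC (-1.35 ± 0.22, adjusted p = 0.0109). The pDC and cDC libraries did not overlap for either subunit. Tyms, Tk1 and Dut, which make or protect the thymidine nucleotide pool, had log2 fold changes of -2.02 ± 0.35, -2.34 ± 0.39 and -1.90 ± 0.19.

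Among the transcriptional regulators, E2f1, an activator of S phase genes, was the 1 of the 42 members called higher in pDC: it had 29.8 and 26.3 CPM in vehicle pDC, against 8.81 and 10.6 CPM in vehicle cDC (1.5 ± 0.22, adjusted p = 0.00847). Its relative E2f2 went the other way, with 5.9 and 1.3 CPM in vehicle pDC, against 47.6 and 40.9 CPM in vehicle cDC (-3.64 ± 0.68, adjusted p = 0.0157). Neither pair of groups overlapped. Mybl2, which codes for B-Myb, was low throughout, with 1.77 and 0.757 CPM in vehicle pDC, against 6.43 and 6.6 CPM in vehicle cDC (-2.39 ± 0.51, adjusted p = 0.0223). Foxm1, the forkhead factor of the mitotic wave, was the 1 member not called: it had 7.57 and 5.57 CPM in vehicle pDC, against 13.1 and 10.3 CPM in vehicle cDC (-0.87 ± 0.31, adjusted p = 0.0914, and 0.038 with a replicate block). Uhrf1, which brings the maintenance DNA methyltransferase to replicated DNA, had 27.8 and 9.03 CPM in vehicle pDC, against 164 and 136 CPM in vehicle cDC (-3.06 ± 0.55, adjusted p = 0.0144).

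All 6 cyclin and kinase genes were lower. Ccne1, a G1/S cyclin, had the most negative log2 fold change of the 42, with 1.56 and 0.919 CPM in vehicle pDC, against 23.6 and 23.1 CPM in vehicle cDC (-4.25 ± 0.36, adjusted p = 0.00191). Ccne2, its paralog, had 3.13 and 1.57 CPM in vehicle pDC, against 16.6 and 19.2 CPM in vehicle cDC (-2.96 ± 0.41, adjusted p = 0.00716). For both E cyclins every pDC library was below both cDC libraries. Ccna2 of S and G2 phase, the mitotic cyclins Ccnb1 and Ccnb2 and their kinase Cdk1 had log2 fold changes of -3.50 ± 0.44, -2.52 ± 0.49, -2.87 ± 0.57 and -2.98 ± 0.49. Reads of Ccnb1 may be shared with Ccnb1-ps, a pseudogene that took 227 and 65 counts in vehicle pDC and 884 and 815 counts in vehicle cDC, so its own level is uncertain.

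All 15 genes of mitosis were lower. Among the 8 kinase, checkpoint and anaphase-promoting complex (APC/C) genes, log2 fold changes ran from -3.30 (Bub1, a checkpoint kinase) to -2.57 (Ube2c, the E2 enzyme of the APC/C). Bub1 had 8.02 and 2.27 CPM in vehicle pDC, against 49.2 and 50.3 CPM in vehicle cDC (adjusted p = 0.0139). Plk1, the Polo kinase, was the least certain call of these, with 16.1 and 3.14 CPM in vehicle pDC, against 74.5 and 50 CPM in vehicle cDC (-2.72 ± 0.76, adjusted p = 0.0467). Among the 7 spindle, kinetochore and chromosome genes, log2 fold changes ran from -3.14 (Kif11, the motor that separates spindle poles, and Nusap1, a spindle-binding protein) to -2.15 (Cenpa, the centromeric histone). Mki67, which codes for the Ki-67 antigen used to count cycling cells, had 35.6 and 10.8 CPM in vehicle pDC, against 119 and 170 CPM in vehicle cDC (-2.67 ± 0.59, adjusted p = 0.0242). Top2a, the topoisomerase that untangles sister chromatids, had 82.4 and 21.8 CPM in vehicle pDC, against 476 and 374 CPM in vehicle cDC (-3.06 ± 0.65, adjusted p = 0.022). In vehicle pDC, replicate 1 was above replicate 2 for all 15 mitotic genes and for 40 of the 42 members, with a median difference of 1.04 log2 units over the 42.

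**Figure D2:**
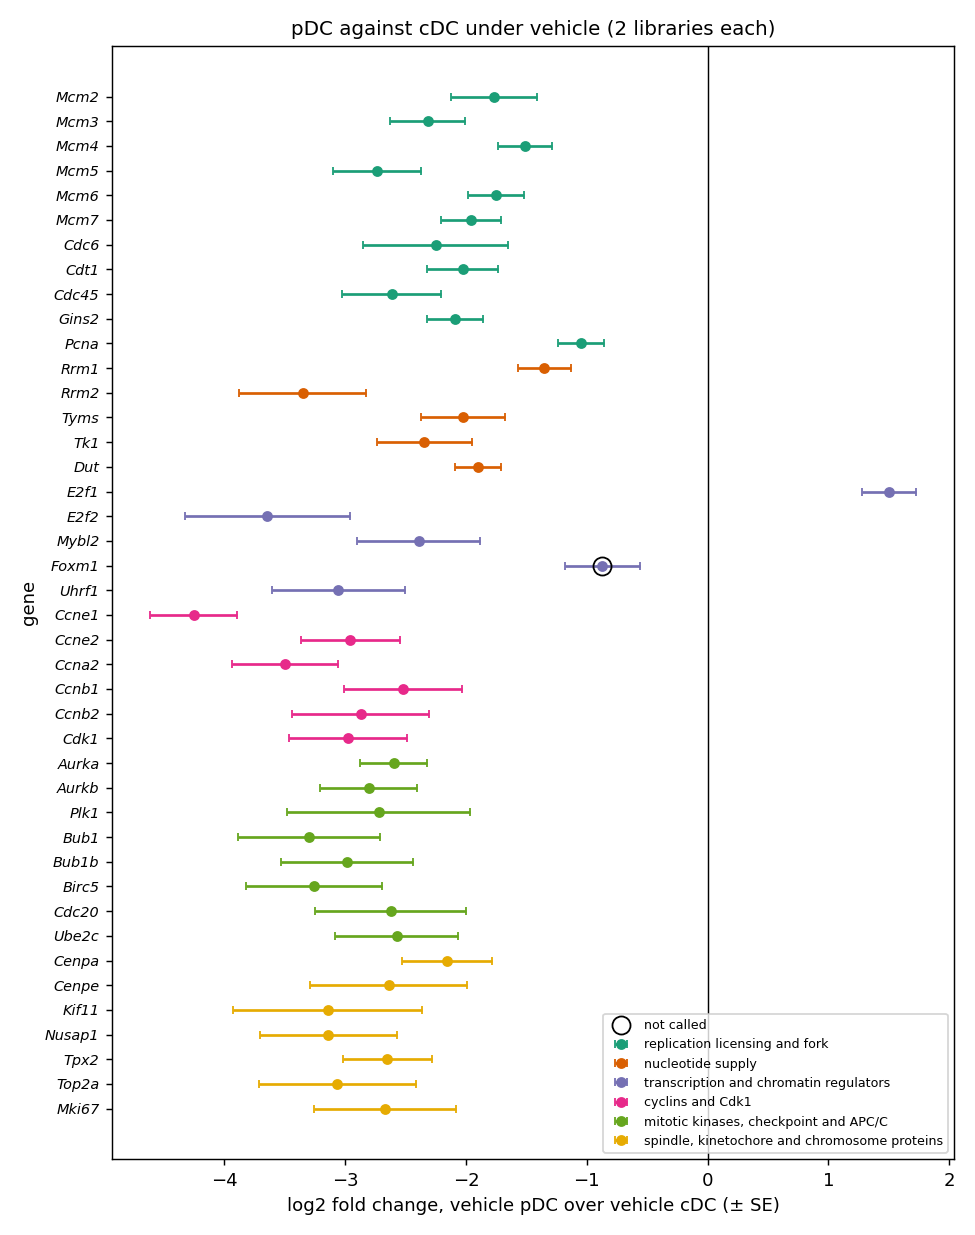
Log2 fold change of vehicle pDC over vehicle cDC for each member, coloured by role, with standard errors from the quasi-likelihood fit (2 libraries a group). Values lie between -4.25 (Ccne1) and -0.87 (Foxm1, circled as not called) except E2f1 at 1.5.

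Other cell cycle genes were counted in the same way, beside 18.4% of all genes called lower and 14.3% called higher. Of 49 other S phase genes, 36 were called lower in vehicle pDC and 0 higher, with a median of -1.42. Chaf1a, a subunit of the replication-coupled histone chaperone, had 3.18 and 3.14 CPM in vehicle pDC, against 41 and 43.1 CPM in vehicle cDC (-3.76 ± 0.21, adjusted p = 0.000889). Of 56 other G2 and M phase genes, 49 were called lower and 0 higher, with a median of -2.61. Cep55, which acts in the final cut between daughter cells, had 2.77 and 1.73 CPM in vehicle pDC, against 38.5 and 41.9 CPM in vehicle cDC (-4.18 ± 0.31, adjusted p = 0.00144). Of the 9 cyclins and kinases of G1, Cdk2 was called (lower, -1.39 ± 0.33, adjusted p = 0.0295); Cdk4 had 124 and 128 CPM in vehicle pDC, against 163 and 153 CPM in vehicle cDC (-0.36 ± 0.16, adjusted p = 0.153).

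Among 17 tested genes of CDK inhibitors, pocket proteins and quiescence, 2 were called higher in vehicle pDC and 3 lower, near the shares of all genes (14.3% higher and 18.4% lower). Those higher both code for INK4 inhibitors, which block Cdk4 and Cdk6. Cdkn2d had 168 and 154 CPM in vehicle pDC, against 46.3 and 39.4 CPM in vehicle cDC (1.88 ± 0.18, adjusted p = 0.00283), and Cdkn2c had 42.6 and 64.8 CPM in vehicle pDC, against 9.46 and 7.43 CPM in vehicle cDC (2.64 ± 0.30, adjusted p = 0.0044). Neither overlapped between the groups. The lower ones were Cdkn1a, the p53 target p21 (-2.15 ± 0.37, adjusted p = 0.0128), and the pocket protein genes Rbl1 (-1.74 ± 0.26, adjusted p = 0.00853) and Rb1 (-0.78 ± 0.20, adjusted p = 0.0343), the last named after its value was seen. The set median was 0.0802.

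In the fit of all 8 libraries E2f1 had adjusted p = 0.112. Without vehicle cDC replicate 1, 26 members were called, all lower, beside 8.65% of all genes called lower, and E2f1 had adjusted p = 0.0645. Markers of other cells differed as well. Kit, of progenitors and many leukemias, had 30.8 and 35.8 CPM in vehicle pDC, against 339 and 248 CPM in vehicle cDC, while the other 10 progenitor and blast markers summed to 43.9 and 32.7 CPM in vehicle pDC, against 29.1 and 20 CPM in vehicle cDC, with Ctsg and Prtn3 at 0 in vehicle cDC replicate 1. Of the 7 of these markers tested, Kit included, 2 were called higher in pDC and 2 lower, beside 14.3% and 18.4% of all genes. Of the 8 monocyte and macrophage markers, 3 were called higher in pDC and 4 lower, beside the same shares of all genes, with a median of -2.82. Ly6c2, which pDC also express, had 1670 and 3440 CPM in vehicle pDC, against 3.4 and 7.71 CPM in vehicle cDC, and Csf1r had 10.8 and 8.7 CPM in vehicle pDC, against 204 and 143 CPM in vehicle cDC. The 9 erythroid markers found summed to 1050 and 492.2 CPM in vehicle pDC, against 652.2 and 301.8 CPM in vehicle cDC, most of it from Hba-a1, and 0 of the 9 were called. Their part in the difference was not tested.

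Under panobinostat the order of the cell types was the same for most members, at a lower certainty. The 42 genes summed to 1271 and 759.3 CPM in panobinostat pDC, against 4414 and 4338 CPM in panobinostat cDC. Their median log2 fold change, pDC over cDC, was -2.46, beside -0.195 over all 13267 genes tested. For 40 of the 42 both pDC libraries lay below both cDC libraries, beside 37.4% of all genes, and the exceptions were E2f1 and Foxm1. By the test, 1 member was called lower and 0 higher, beside 0.437% of all genes called lower and 0.776% called higher.

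The called member was Rrm2, with 58.5 and 57.3 CPM in panobinostat pDC, against 253 and 221 CPM in panobinostat cDC (-2.07 ± 0.20, adjusted p = 0.0494). Its call was lost with RLE scaling (adjusted p = 0.0523), with library size alone (0.0541) and without panobinostat cDC replicate 1 (0.106). Mcm4 followed, with 51.6 and 61 CPM in panobinostat pDC, against 179 and 182 CPM in panobinostat cDC (-1.71 ± 0.20, adjusted p = 0.0596). E2f1, higher in pDC under vehicle, had 15.6 and 8.45 CPM in panobinostat pDC, against 8.63 and 8.75 CPM in panobinostat cDC, which overlap (0.44 ± 0.81, adjusted p = 0.813); without panobinostat pDC replicate 1 its log2 fold change was -0.097. Cdkn2d had 213 and 259 CPM in panobinostat pDC, against 41.4 and 35.7 CPM in panobinostat cDC (2.58 ± 0.23, adjusted p = 0.0463), and was called higher.

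The 2 libraries of panobinostat pDC lay far apart. Bub1b, a spindle checkpoint gene, had 8.68 CPM in replicate 1 and 0 counts in replicate 2 of panobinostat pDC, against 82.1 and 70.7 CPM in panobinostat cDC (log2 fold change -4.14, adjusted p = 0.372). Without panobinostat pDC replicate 2, 40 members were called lower, beside 25.3% of all genes, and without replicate 1, 41 were, beside 48.8%. The block by replicate number called 7 lower, beside 2.2% of all genes, and all 8 libraries fitted together called 13, beside 10.2%. Erythroid markers summed to 2447 and 852.5 CPM in panobinostat pDC, against 733.5 and 121.8 CPM in panobinostat cDC, and Klf1, Gata1, Epor and Car1 were at 0 in panobinostat pDC replicate 2; their part was not tested.

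In cDC, no member passed the test between panobinostat and vehicle. Of the 42 genes 0 were called, as were 0 of all 13556 genes tested (0%), while 12 members and 1324 genes had an unadjusted p under 0.05. DESeq2 called 2 members, Ccnb1 (adjusted p = 0.0243) and Ccnb2 (0.0361), among 266 genes; with the replicate block 0 members and 106 genes were called. The median log2 fold change of the 42, panobinostat over vehicle, was -0.188, beside -0.0146 over all genes. For 18 members both panobinostat libraries lay below both vehicle libraries, beside 18.9% of all genes, and for 3 they lay above, beside 22.7%.

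The members were then read by role; a difference between roles was not tested. Over the 16 replication and nucleotide genes the median change was 0.00109 (log2), with 8 above and 8 below 0. They summed to 2551 and 2473 CPM in panobinostat cDC, against 2610 and 2256 CPM in vehicle cDC, which overlap. Of the 11 licensing and fork genes, 8 were above 0 (median 0.0419), while all 5 nucleotide supply genes were below 0 (median -0.112). Mcm5 had 227 and 217 CPM in panobinostat cDC, against 229 and 206 CPM in vehicle cDC (0.0061 ± 0.12, adjusted p = 0.992). Mcm6 was the 1 of these 16 with both panobinostat libraries above, at 419 and 409 CPM in panobinostat cDC, against 373 and 343 CPM in vehicle cDC (0.19 ± 0.12, adjusted p = 0.679). For Tyms, thymidylate synthase, both panobinostat libraries were below, at 59.8 and 58.5 CPM in panobinostat cDC, against 80.5 and 71.6 CPM in vehicle cDC (-0.38 ± 0.12, adjusted p = 0.467).

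The 15 mitotic genes all had log2 fold changes below 0, with a median of -0.385 and 0 called. For 10 of them both panobinostat libraries lay below both vehicle libraries, beside 18.9% of all genes, and for Mki67, Aurkb, Plk1, Bub1b and Cenpe the groups overlapped. They summed to 1289 and 1322 CPM in panobinostat cDC, against 1767 and 1522 CPM in vehicle cDC. Cdc20, which activates the APC/C, had 44.6 and 47 CPM in panobinostat cDC, against 74 and 60.9 CPM in vehicle cDC (-0.58 ± 0.14, adjusted p = 0.43). Cenpa had 51.3 and 56.1 CPM in panobinostat cDC, against 85.6 and 70.6 CPM in vehicle cDC (-0.56 ± 0.15, adjusted p = 0.43). Bub1 had 32.6 and 38.2 CPM in panobinostat cDC, against 49.2 and 50.3 CPM in vehicle cDC (-0.51 ± 0.13, adjusted p = 0.43). For these 3 genes both panobinostat libraries were the lower pair. Mki67 overlapped, with 125 and 141 CPM in panobinostat cDC, against 119 and 170 CPM in vehicle cDC (-0.14 ± 0.19, adjusted p = 0.847). Aurkb, the kinase of the chromosomal passenger complex, overlapped as well (-0.09 ± 0.18, adjusted p = 0.893).

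Among the cyclins none was called. The G1/S cyclin Ccne1 had 30.3 and 30.2 CPM in panobinostat cDC, against 23.6 and 23.1 CPM in vehicle cDC (0.35 ± 0.12, adjusted p = 0.486), and Ccne2 had 19.3 and 24 CPM in panobinostat cDC, against 16.6 and 19.2 CPM in vehicle cDC (0.25 ± 0.17, adjusted p = 0.689). For both E cyclins the panobinostat libraries were the higher pair, for Ccne2 by a narrow margin. Ccnb1 had 84 and 78.2 CPM in panobinostat cDC, against 126 and 115 CPM in vehicle cDC (-0.59 ± 0.12, adjusted p = 0.405). Ccnb2 had 73 and 75.2 CPM in panobinostat cDC, against 121 and 103 CPM in vehicle cDC (-0.62 ± 0.13, adjusted p = 0.405). Ccna2 (-0.39 ± 0.15) and Cdk1 (-0.38 ± 0.11) were also lower in both panobinostat libraries. Ccnb1-ps took 580 and 497 counts in panobinostat cDC and 884 and 815 counts in vehicle cDC.

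**Figure D3:**
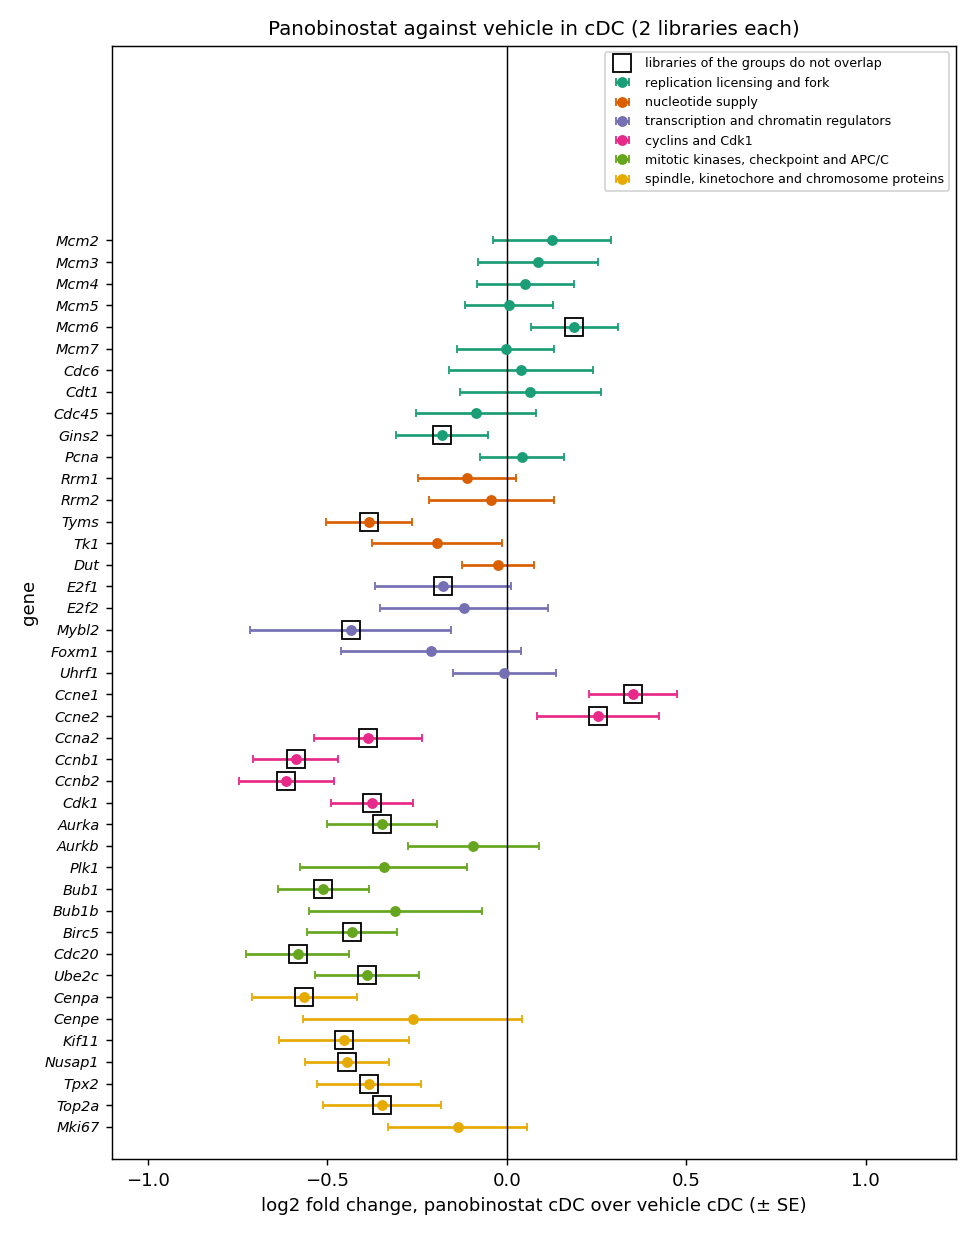
Log2 fold change of panobinostat cDC over vehicle cDC for each member, coloured by role, with standard errors from the quasi-likelihood fit (2 libraries a group); a square marks members whose groups do not overlap. Replication licensing and fork genes scatter around 0, and the 5 nucleotide supply genes lie at -0.385 to -0.0247. The 15 mitotic genes lie at -0.58 to -0.09, and Ccne1 and Ccne2 lie above 0. No member was called.

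The ratio of the summed mitotic genes to the summed replication and nucleotide genes, which does not depend on library scaling, was 0.505 and 0.535 in panobinostat cDC, against 0.677 and 0.675 in vehicle cDC. For the other gene lists, the ratio of 56 G2 and M genes to 49 S phase genes was 1.43 and 1.46 in panobinostat cDC, against 1.68 and 1.65 in vehicle cDC. Both ratios were lower in each panobinostat library, but with 2 libraries a group a two-sided exact permutation test cannot go below p = 0.333. Of the 56 other G2 and M genes, 55 had log2 fold changes below 0 and 0 were called. Hmmr, a spindle-associated hyaluronan receptor, had 30.5 and 38.7 CPM in panobinostat cDC, against 53.9 and 57.9 CPM in vehicle cDC (-0.72 ± 0.15, adjusted p = 0.405). Of the 49 other S phase genes, 40 were below 0, with a median of -0.146 and 0 called. Of the 17 tested genes of CDK inhibitors, pocket proteins and quiescence, 13 were below 0 and 4 above, with a median of -0.106 and 0 called. Among those above was Btg2, an antiproliferative gene, with 1150 and 1150 CPM in panobinostat cDC, against 503 and 744 CPM in vehicle cDC (0.87 ± 0.21, adjusted p = 0.428). Among those below was Rbl1 (-0.37 ± 0.12, adjusted p = 0.475). In pDC the mitotic to replication ratio was 0.444 and 0.176 under panobinostat, against 0.447 and 0.21 under vehicle, so the replicates of a group lay farther apart than the groups.

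**Figure D4:**
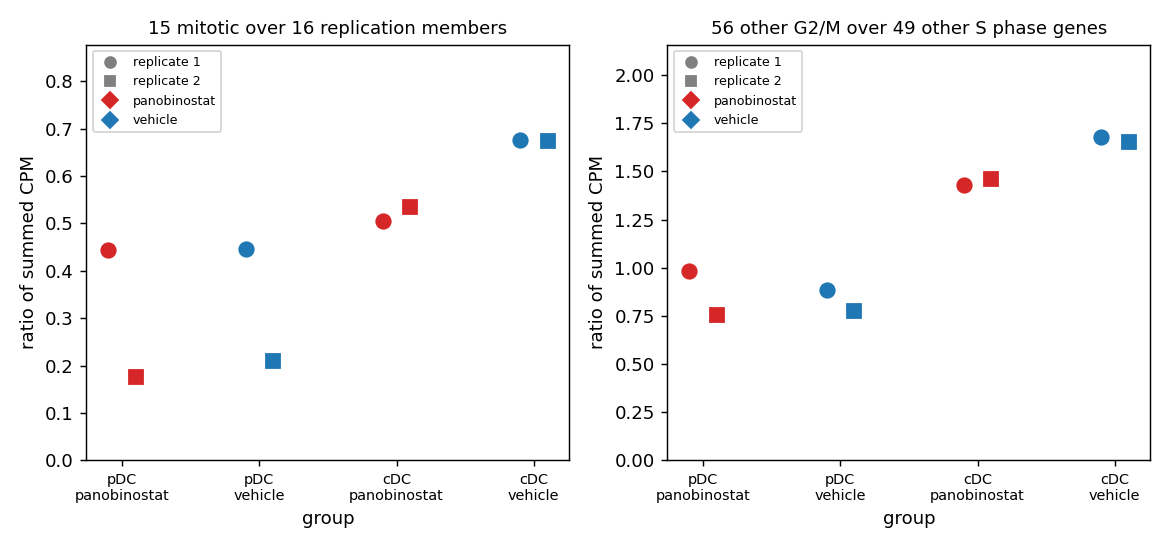
Ratio of summed CPM of mitotic to replication genes in each library: left, the 15 mitotic over the 16 replication and nucleotide members; right, 56 other G2/M over 49 other S phase genes. In cDC both panobinostat libraries (red) lie below both vehicle libraries (blue); in pDC the groups overlap.

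The log2 fold changes in cDC depended on vehicle cDC replicate 1. Without it the 15 mitotic genes had a median of -0.245, with 13 below 0, and the 56 other G2 and M genes had 45 below 0. The median of all 42 members was then -0.0227. Both ratios were close between vehicle cDC replicates 1 and 2, at 0.677 and 0.675 for the members and 1.68 and 1.65 for the other lists. Scaling by library size alone moved the median of all genes to -0.129 and that of the replication and nucleotide genes to -0.115, with 14 of 16 below 0, while the 15 mitotic genes stayed below 0 (median -0.504). The 8 B cell markers summed to 583.4 and 859.9 CPM in panobinostat cDC, against 1062 and 2055 CPM in vehicle cDC, with 7 of 8 log2 fold changes below 0 and none of the 8 genes at 0 counts. Cd79a had 6.8 and 37.7 CPM in panobinostat cDC, against 25.9 and 101 CPM in vehicle cDC. Of the 5 germinal centre and plasma cell markers tested, 4 were below 0 and 1 above, with a median of -2 and 0 called. Jchain had 13.8 and 32.9 CPM in panobinostat cDC, against 36.1 and 187 CPM in vehicle cDC. Xbp1, the 1 above, had 270 and 286 CPM in panobinostat cDC, against 223 and 222 CPM in vehicle cDC. The 8 NK cell markers summed to 209.6 and 399.2 CPM in panobinostat cDC, against 145.3 and 183.4 CPM in vehicle cDC, with 8 of 8 log2 fold changes above 0 and Eomes at 0 in vehicle cDC replicate 1. Their part in the pattern was not tested.

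Promoters of members with an entry were chosen by the number of comparisons called, then by the smallest p-value in cDC. Those shown are of Rrm2, the 1 member called between the cell types under both treatments, and of Ccnb1, Ccnb2 and Bub1. Each is the 250 bases before the annotated start (RefSeq, GRCm38.p6), 5′ to 3′ on the gene's strand. Capitals mark CCAAT boxes (CCAAT or ATTGG), which NF-Y binds, and the cell cycle homology region (CHR: TTTGAA or TTCAAA), which MuvB complexes bind; no E2F word was found in these 4.
Rrm2 (chr12:24708004-24708253, plus strand): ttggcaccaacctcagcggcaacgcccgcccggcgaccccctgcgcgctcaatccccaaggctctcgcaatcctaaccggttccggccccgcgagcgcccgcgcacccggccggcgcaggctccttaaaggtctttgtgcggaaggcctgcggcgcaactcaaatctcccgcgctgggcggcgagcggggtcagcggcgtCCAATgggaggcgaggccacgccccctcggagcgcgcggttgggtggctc
Ccnb1 (chr13:100786487-100786736, minus strand): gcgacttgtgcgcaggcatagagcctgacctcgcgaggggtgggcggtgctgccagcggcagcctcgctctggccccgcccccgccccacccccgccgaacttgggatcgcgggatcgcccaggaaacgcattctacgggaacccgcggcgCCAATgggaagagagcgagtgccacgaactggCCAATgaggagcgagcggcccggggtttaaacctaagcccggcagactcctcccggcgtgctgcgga
Ccnb2 (chr9:70421555-70421804, minus strand): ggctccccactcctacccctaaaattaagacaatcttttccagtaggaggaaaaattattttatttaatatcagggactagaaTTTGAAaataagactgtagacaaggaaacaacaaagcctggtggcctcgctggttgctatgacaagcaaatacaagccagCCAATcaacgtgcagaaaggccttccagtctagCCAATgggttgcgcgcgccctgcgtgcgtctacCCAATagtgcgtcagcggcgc
Bub1 (chr2:127831860-127832109, minus strand): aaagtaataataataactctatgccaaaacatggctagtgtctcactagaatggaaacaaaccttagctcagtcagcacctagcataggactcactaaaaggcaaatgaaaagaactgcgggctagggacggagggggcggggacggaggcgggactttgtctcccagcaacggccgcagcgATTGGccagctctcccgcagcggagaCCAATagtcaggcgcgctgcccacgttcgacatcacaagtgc

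Of the 42 members 35 had a promoter entry. CCAAT boxes stood in 71.4% of them, against 36.3% of 18458 promoters of genes in the table, and the CHR in 25.7%, against 14.6%. The E2F words searched, TTTCCCGC, TTTCGCGC, TTTGCCGC and TTTGGCGC with their reverse complements, stood in 14.3%, against 2.37%. By role, E2F words stood in 4 of 14 promoters of replication and nucleotide genes and in 0 of 13 of the mitotic genes, while the CHR stood in 2 of the 14 and in 5 of the 13. All words were searched on both strands, and a word found is a match of letters only.

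In pDC, no member passed the test between panobinostat and vehicle. Of the 42, 0 were called, as were 0 of all 12680 genes tested (0%), while 0 members and 541 genes had an unadjusted p under 0.05; DESeq2 called 0 members and 102 genes. The median log2 fold change of the 42 was -0.189, beside -0.148 over all genes. It was -1.13 with the replicate block, beside -0.374 over all genes, and -0.747 with limma-voom, beside -0.327. It was 0.369 without panobinostat pDC replicate 2, and -2.03 without replicate 1. In the fit without replicate 1, 22 members were called lower and 2 higher, beside 34.8% and 14.2% of all genes. For 4 members both panobinostat libraries were above both vehicle libraries, beside 17.5% of all genes, and for 3 they were below, beside 25.1%.

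The 4 were Pcna and 3 genes of nucleotide supply. Rrm2 had 58.5 and 57.3 CPM in panobinostat pDC, against 35.6 and 12.7 CPM in vehicle pDC (1.18 ± 0.66, adjusted p = 0.973). Dut, which removes dUTP, had 34.3 and 43.6 CPM in panobinostat pDC, against 24.1 and 19.8 CPM in vehicle pDC (0.76 ± 0.51, adjusted p = 0.973). Tyms had 25.5 and 30.5 CPM in panobinostat pDC, against 25.2 and 13.1 CPM in vehicle pDC, apart by a narrow margin (0.47 ± 0.66, adjusted p = 0.98). The vehicle libraries were themselves far apart for Rrm2 and Tyms. The 3 that were below were Cdt1, E2f1 and Mybl2. Mybl2 had low counts, at 14 and 0 in panobinostat pDC, against 35 and 14 in vehicle pDC. Its groups were apart by a narrow margin (0.694 against 0.757 CPM). E2f1 had 15.6 and 8.45 CPM in panobinostat pDC, against 29.8 and 26.3 CPM in vehicle pDC (-1.27 ± 0.71, adjusted p = 0.973). Cdt1 had 4.66 CPM in replicate 1 and 0 counts in replicate 2 of panobinostat pDC, against 9.79 and 6.92 CPM in vehicle pDC (-1.87 ± 2.29, adjusted p = 0.977).

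Whether panobinostat acted differently in the 2 cell types was asked of all 8 libraries together. For the effect in pDC minus that in cDC, 0 of the 42 genes were called, beside 1 of all 14238 genes (0.00702%). An unadjusted p under 0.05 was found for 1 of the 42 members, beside 1107 of the 14238 genes. That member, Dut, had a difference of 0.83 ± 0.33 (adjusted p = 0.632). The comparisons share libraries: each group enters the comparison of treatments and that of cell types. The median difference was 0.15, and it was -1.86, with 24 members called beside 43.4% of all genes, without panobinostat pDC replicate 1.

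Replicates of a group also differed in these genes. Replicate 1 was above replicate 2 for 34 of 42 members in panobinostat pDC and 40 of 42 in vehicle pDC, against 25 of 42 in panobinostat cDC and 33 of 42 in vehicle cDC. Of the 14238 genes kept over all libraries, replicate 1 was above for 8843 in panobinostat pDC and 6960 in vehicle pDC, against 6737 in panobinostat cDC and 6724 in vehicle cDC. The median difference over the 42 was 2.26 log2 units in panobinostat pDC, beside 0.312 over all genes kept, and 1.04 in vehicle pDC, beside -0.00276, against 0.0299 in panobinostat cDC and 0.246 in vehicle cDC. The 9 erythroid markers were higher in replicate 1 in all 4 groups, including panobinostat cDC, where their median difference was 2.67 log2 units. Hba-a1, an alpha globin gene that can share reads with its near copy Hba-a2, had 2130 and 850 CPM in panobinostat pDC and 710 and 407 CPM in vehicle pDC, against 604 and 105 CPM in panobinostat cDC and 456 and 241 CPM in vehicle cDC. The part of erythroid RNA in the members' levels was not tested.

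**Figure D5:**
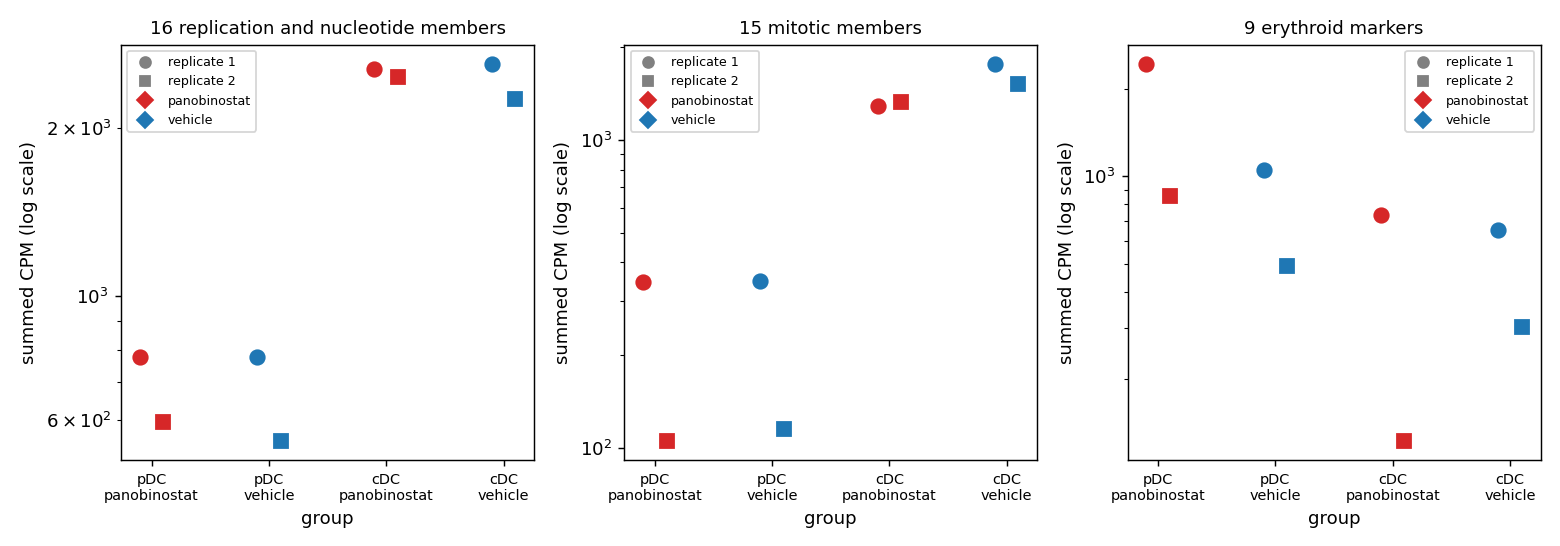
Summed CPM (log scale) of the 16 replication and nucleotide members, the 15 mitotic members and the 9 erythroid markers in each library; circles are replicate 1, squares replicate 2. Mitotic sums are 105 to 348.1 in pDC and 1289 to 1767 in cDC, and erythroid sums are higher in replicate 1 of each group.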

How the data were processed

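RNA-seq read counts per gene were deposited by the authors as 1 table of raw counts (27179 Entrez gene IDs, 8 libraries). Per the submitters' processing notes, the tools were cutadapt (2.1) for trimming, HISAT2 (2.1.0) for alignment, with mm10 as the build, and featureCounts (Subread 2.0.0) for counting. The sources used here do not give strand handling, the annotation or how multi-mapped reads were treated, so genes with near copies or antisense partners are uncertain. Columns named D5W were taken as vehicle and LBH as panobinostat. Symbols came from RefSeq (GRCm38.p6), and 92.99% of IDs matched.

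Testing used edgeR (4.0.16) under R (4.3.3), with filterByExpr (minimum count 10, minimum total 15), TMM, the quasi-likelihood F test and Benjamini-Hochberg adjustment over all genes tested. Fits used the 4 libraries of the groups compared, and the difference of effects used all 8. Standard errors were derived from the quasi-likelihood statistic. The scripts were tested on simulated data for panobinostat over vehicle in cDC and for pDC over cDC under vehicle only. The simulated counts had the same dispersion for all genes and no library that stood apart, unlike panobinostat pDC replicate 2. Alternatives used DESeq2 (1.42.0) and limma-voom (limma 3.58.1).

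The 42 members, the other gene lists, the samples in each fit and the genes followed singly across alternatives were chosen with earlier results of these data known, and the counts from fits of 4 libraries and of all 8 are both given. By rule all members could be named, with the 4 smallest p-values of each other list and the first 2 markers of each cell type. Deviations of same-number libraries from their group means correlated at 0.146 to 0.489 between groups, and the labels do not say what a number shares; the fits reported treat libraries as unpaired, with the replicate number as a block among the alternatives. The floor covers counting error only. Standard errors and p-values come from the quasi-likelihood fit, and rest on the spread between pools and on a spread shared across genes.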

Additional observations from a re-analysis of the deposited data

Results flagged for a closer look

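Tyms, which codes for thymidylate synthase, was set apart by where its libraries lay in the 2 cell types, although it was called in neither: both panobinostat libraries were above both vehicle libraries in pDC (25.5 and 30.5 CPM under panobinostat, against 25.2 and 13.1 CPM under vehicle) and below them in cDC (59.8 and 58.5 CPM under panobinostat, against 80.5 and 71.6 CPM under vehicle). In pDC the margin was narrow, at 25.5 against 25.2 CPM. Such separation was common: 17.5% of all genes tested lay above in pDC, and 18.9% lay below in cDC. For Tyms the difference between the effects, pDC minus cDC, was 0.91 ± 0.50 log2 units and did not pass edgeR's quasi-likelihood test (adjusted p = 0.758).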

How the results depend on the processing

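For pDC over cDC under vehicle, 40 to 42 members were called under both other scalings, both filters, DESeq2, limma-voom and the replicate block (42). Of all genes tested, 25.7% (no filter on low counts) to 43.4% (replicate block) were called in those fits. Without 1 vehicle library, the share of all genes called was lower than with all 4, and lowest without vehicle cDC replicate 1. The median log2 fold change of the members lay between -3.39 and -2.03 in the fits without 1 library. All 8 libraries fitted together called 16, and with a replicate block, an alternative chosen after seeing the data, 15; leaving out 1 library gave 26 to 41, with 26 without vehicle cDC replicate 1. For pDC over cDC under panobinostat, 0 were called with RLE scaling, 16 with DESeq2, 5 with limma-voom, 7 with the replicate block, 13 with all 8 libraries and 13 with all 8 and the block, beside 0.256%, 8.68%, 3.41%, 2.2%, 10.2% and 8.55% of all genes called lower. Leaving out 1 library gave 4 to 41 there (41 without panobinostat pDC replicate 1, 40 without replicate 2, 5 and 4 without panobinostat cDC replicate 1 and 2, beside 1.84% and 1.54% of all genes called lower), with medians from -4.31 to -1.90, and the log2 fold change of E2f1 was -0.097 and 0.802 without panobinostat pDC replicate 1 and 2. In cDC, DESeq2 called 2 members and the other alternatives 0; the median stayed below 0, at -0.0227 without vehicle cDC replicate 1. Mcm5, at 0.0061, was -0.109 with library size alone, -0.00414 with the stricter filter, and -0.078 (without vehicle cDC replicate 2) to 0.104 (without vehicle cDC replicate 1) over the fits without 1 library, with -0.0322 without panobinostat cDC replicate 1. In pDC, leaving out 1 library gave medians from -2.03 to 0.514, and the other alternatives called 0. The difference of effects had 0 to 24 members called and medians from -1.86 to 0.938 without 1 library, and its median of 0.15 was -0.526 with limma-voom and -0.22 with the replicate block. That block changed no other count of members called. The causes were not tested. With 1 library left, a group is assumed to vary like the other.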
